A study of Mus musculus with 2 samples.

Results

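The genes described here are 5 genes of natural killer T (NKT) cell biology: Zbtb16, Cd1d1, Cd1d2, Slamf1 and Slamf6. The rule lists them by name and uses no measured value, although earlier results of these data were known when they were chosen. They were set beside 21938 protein-coding genes of the GENCODE vM21 basic annotation. Of the 5 genes, 4 are annotated as protein-coding, and Cd1d2 is annotated as a polymorphic pseudogene. Each gene was taken as its gene body with 20 kb on each side. The windows of Cd1d1 and Cd1d2 overlap almost wholly, so that the 5 genes lie in 4 loci and the 2 Cd1d genes share their listed peaks.

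Accessible chromatin was mapped by DNase-seq, in which the enzyme DNase I cuts exposed DNA in nuclei and the cut ends are sequenced. The tissue was thymus from adult female B6CASTF1/J mice of 18 to 20 months, obtained from The Jackson Laboratory. These mice are first-generation hybrids of the B6 and CAST strains, and no other genotype, treatment, age or tissue was compared. The labels hold 1 group of 2 libraries, replicates 1 and 2, with separate biosample records under 1 donor record. Whether separate animals were used is not stated, and the difference between the libraries may be purely technical.

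NKT cells are T cells that recognise lipids rather than peptides. In the thymus, CD4+CD8+ thymocytes carry the lipid-presenting molecule CD1d, which meets an invariant T cell receptor on neighbouring thymocytes. Receptors of the SLAM family, on both partners of that contact, pass a second signal through the adaptor SAP and the kinase Fyn, and the cells that emerge express the zinc finger factor PLZF, encoded by Zbtb16. NKT cells are a small minority of thymic cells. In whole tissue, fewer cells of a type with open chromatin and weaker opening in each cell cannot be told apart.

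Each library came with a shorter and a longer list of peaks, with 1 signal value per peak in units that are not stated, and a list of footprints, short stretches protected from cutting within accessible DNA. The shorter lists held 50648 and 49872 peaks, the longer lists 77453 and 79004, and the footprint lists 223227 and 247677 entries in replicates 1 and 2. The median signal of the shorter list was 1.66 and 1.43. Read depth is unknown. All signal values were whole multiples of 0.00895 in replicate 1 and 0.00652 in replicate 2 (tolerance 0.1 steps). Of the thymocyte markers listed for this work, 11 of 12 had a promoter peak in both libraries, with summed signals of 68.1 and 75.6. Of the markers of B cells 2 of 8 had one in both, with sums of 5.32 and 6.48. Of those of myeloid and dendritic cells 0 of 8 did, with sums of 1.18 and 0. Of those of thymic epithelium 3 of 7 did, with sums of 9.12 and 6.08. Of those of fibroblasts and adipocytes 2 of 8 did, with sums of 5.75 and 3.18. Of those of NK and innate lymphoid cells 2 of 7 did, with sums of 2.31 and 1.35. Of all protein-coding genes, 53.6% had a promoter peak, a peak of the shorter list within 1 kb of a start site, in both libraries. The lists differ in length, so their summed signals cannot be compared with one another. The part of cells other than thymocytes in the values below was not tested.

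The start sites of 4 of the 5 genes carried a peak of the shorter list within 1 kb in both libraries, a state found at 53.6% of protein-coding genes. Cd1d2 was the exception. In the longer lists all 5 genes had such a peak in both libraries, against 58.1% of protein-coding genes. The promoter signal, that of the strongest peak of the shorter list within 1 kb, was highest at Cd1d1, then Slamf1, Slamf6 and Zbtb16, and the ranges of neighbours in this order did not overlap between the libraries. All 4 values lay under the median over genes with a promoter peak, which was 5.70 in replicate 1 (12110 genes) and 5.09 in replicate 2 (12037 genes). For Slamf6 this depended on the start sites and window used, since its signal was 5.71 and 7.07 with a window of 2500 bp or the comprehensive annotation, above these medians of the 1 kb window. The bases within 1 kb of a start site reached a q-value of 0.001 or lower in both libraries at 4 of the 5 genes, all but Cd1d2, and at 54.2% of protein-coding genes. The q-values and the peaks come from the same libraries, so this is not separate support for the peaks.

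**Figure D1:**
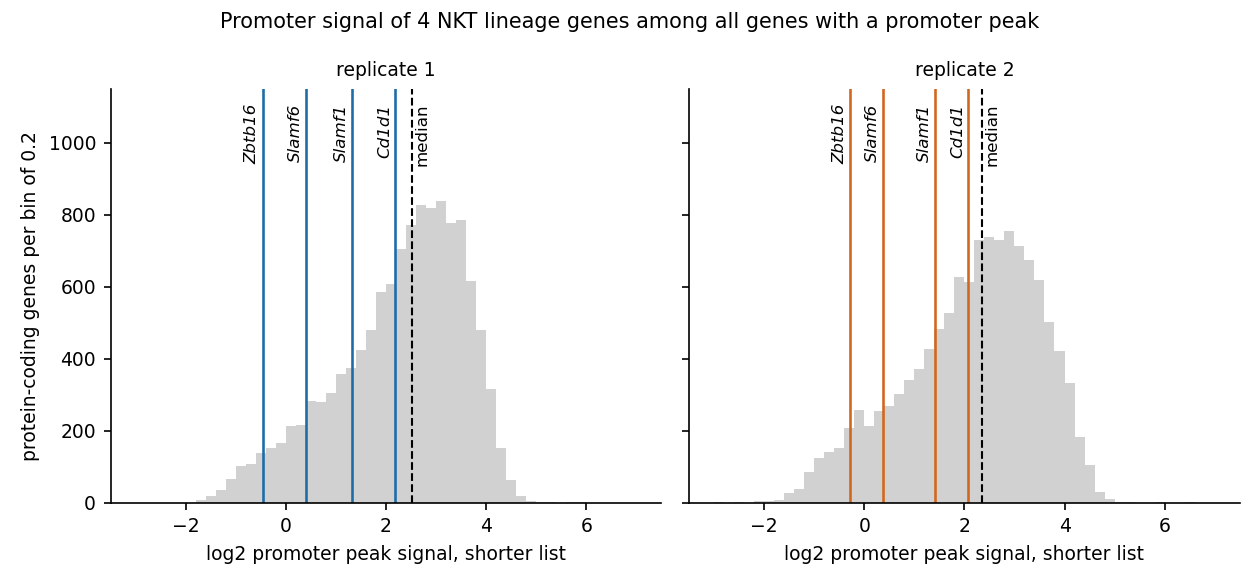
Histograms of log2 promoter peak signal in the shorter list over protein-coding genes with a promoter peak, in bins of 0.2, 1 panel per library. Vertical lines mark Zbtb16, Slamf6, Slamf1 and Cd1d1, and the dashed line the median (signal 5.70 and 5.09). All 4 genes lie left of the median in both libraries.

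Cd1d1 encodes the CD1d heavy chain that displays lipids to NKT cells. It lies at chromosome 3, 86995834 to 86999441, on the minus strand of GRCm38. Its promoter signal was 4.55 in replicate 1 and 4.21 in replicate 2 (4.38 ± 0.239, mean ± SD, n = 2), at percentiles 40.3 and 42.4 among genes with a promoter peak. Both libraries placed this peak over exon 1, within chr3:86999241-86999440. Replicate 2 listed 2 more peaks of the shorter list just inside the gene, with signals of 3.35 over the junction of exon 1 and intron 1 (chr3:86999001-86999240) and 1.61 over exon 2 (chr3:86998721-86998940). Neither list of replicate 1 held a peak there. Its base runs nevertheless reached q-values of 3.83e-25 and 1.51e-13 at these places, against 1.58e-30 and 6.03e-14 in replicate 2. The libraries thus differed at Cd1d1 in what was listed as a peak, while base runs with low q-values were recorded in both. Replicate 1 has no signal value at these places, and the first of them adjoins its exon 1 peak. Whether the strength of cutting differed was not tested.

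The exon 1 peak held 4 footprints in replicate 1 and 5 in replicate 2. It contains the letters CNGGAAG (N is any base), the core bound by ETS factors, at a place where footprints of both libraries reach into the motif, covering 6 of its 7 bases in replicate 1 and 5 in replicate 2. The motif is shown because it is the best covered of those in the strongest promoter peak of the 5 genes. It is given 5′ to 3′ on the gene's strand from the B6 reference, with the motif in capitals; the CAST copy may differ.
Cd1d1 exon 1, chr3:86999348-86999374, minus strand: cctgcgcgtcCTTCCGGgttttgctgg
The same letters, on either strand, occur in 29.1% of all 200-base windows centred on peaks of the shorter list of replicate 1 and in 31.9% of all 32851 promoter windows of 300 bases.

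Cd1d2 is the neighbouring copy of Cd1d1, at chromosome 3, 86986551 to 86989780, on the plus strand, in the opposite direction. The 2 gene bodies are alike in 94.0% of 2952 aligned columns in the B6 reference, and the 1000 bases around their first start sites in 85.7% of 697 aligned columns, so values at either are uncertain where reads fit both. How such reads were handled is not given in the sources used here. At the Cd1d2 start, the shorter lists held no peak. Both longer lists held one at chr3:86986481-86986660, with a signal of 0.913 in replicate 1 and 0.887 in replicate 2 (0.900 ± 0.0181, n = 2). The longer list of replicate 1 alone held another at chr3:86986738-86986908, with a signal of 0.555. The lowest q-value within 1 kb was 0.00695 in replicate 1, at that other peak, and 0.000621 in replicate 2. At the peak found in both lists it was 0.0253 in replicate 1 and 0.000621 in replicate 2. The weak signal of this peak was close to equal in the 2 libraries, while its q-values were not.

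The second shared site of the locus lay 9.8 kb before the Cd1d2 start. Its signal was 2.50 in replicate 1 and 1.17 in replicate 2 (1.83 ± 0.940, n = 2). After the median log2 ratio of all 37494 paired peaks (-0.17, replicate 2 over replicate 1) was subtracted, its log2 ratio was -0.92, at percentile 3.60 of all pairs and the furthest from 0 among the sites shared at these genes. The counting error of that ratio would be 0.14 if each signal step were 1 independent cut.

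Slamf1 encodes SLAM (CD150), a receptor that binds itself on the neighbouring cell. It lies at chromosome 1, 171767127 to 171801184, plus strand. Its promoter signal was 2.51 in replicate 1 and 2.67 in replicate 2 (2.59 ± 0.115, n = 2), at percentiles 22.0 and 27.2. The promoter peak covered chr1:171767061-171767260, over exon 1. In both libraries the start was weaker than a peak 15.6 kb into the gene, in intron 3 at chr1:171782621-171782820, which had a signal of 3.28 in replicate 1 and 4.00 in replicate 2 (3.64 ± 0.505, n = 2). Another shared peak lay over exon 3, at chr1:171777121-171777340, with 2.33 in replicate 1 and 3.42 in replicate 2 (2.88 ± 0.776, n = 2). Its centred log2 ratio of 0.73, at percentile 98.2 of all pairs, made it the one shared site outside the central 95% of pairs (-0.99 to 0.69). At this site the libraries differed more than at most paired peaks, in favour of replicate 2. It was 1 of 14 shared sites, and the central 95% by definition leaves out some pairs. Whether the difference is a trait of exon 3 was not tested.

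The intron 3 sequence is shown because it is the strongest Slamf1 peak and because a footprint called in both libraries holds a RUNX motif (TGNGGTT, here read on the other strand), beside the letters of no other of the 12 motif families searched. RUNX factors act throughout T cell development. Capitals mark the 30 bases inside footprints of both libraries.
Slamf1 intron 3, chr1:171782621-171782820, plus strand: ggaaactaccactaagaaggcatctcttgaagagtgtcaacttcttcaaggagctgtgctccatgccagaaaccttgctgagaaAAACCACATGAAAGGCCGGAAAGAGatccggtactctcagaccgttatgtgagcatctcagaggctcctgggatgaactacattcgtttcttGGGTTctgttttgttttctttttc
The RUNX letters occur in 13.7% of peak windows and in 1.42% and 1.44% of all footprints of replicates 1 and 2, extended by 5 bases on each side.

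The promoter of Slamf1, taken from the RefSeq promoter table of GRCm38.p6, is printed to set beside that of Slamf6. Slamf1 and Slamf6 are the 2 of the 5 genes matched in that table. Of its 300 bases, 8 lay in footprints of both libraries.
Slamf1 promoter, chr1:171766882-171767181, plus strand: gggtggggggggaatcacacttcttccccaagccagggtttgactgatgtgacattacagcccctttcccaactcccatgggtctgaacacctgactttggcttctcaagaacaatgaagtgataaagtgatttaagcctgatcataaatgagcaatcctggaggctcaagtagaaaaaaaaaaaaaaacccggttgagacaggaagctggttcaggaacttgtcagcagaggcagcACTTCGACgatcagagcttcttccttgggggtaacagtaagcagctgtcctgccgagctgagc
Slamf6 promoter, chr1:171917212-171917511, plus strand: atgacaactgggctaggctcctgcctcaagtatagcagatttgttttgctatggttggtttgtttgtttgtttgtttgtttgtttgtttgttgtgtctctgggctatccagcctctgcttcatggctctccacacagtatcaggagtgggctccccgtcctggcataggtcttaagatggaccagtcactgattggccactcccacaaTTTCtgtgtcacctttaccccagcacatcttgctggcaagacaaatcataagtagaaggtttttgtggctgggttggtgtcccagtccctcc
In the Slamf6 window 4 bases lay in footprints of both libraries, in capitals. The Slamf1 window holds the ETS letters, CAGCTG and CAGGTG, both E-boxes, and the Ikaros letters TGGGAA. The Slamf6 window holds none of these and 1 match to the CTCF letters AGNGGGCNC. Among all 32851 promoter windows, 16.3% held CAGCTG, 20.2% CAGGTG, 25.6% the Ikaros letters and 6.52% the CTCF letters. A match is a description of the letters and not a bound site.

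Slamf6 encodes Ly108, which also binds itself between thymocytes and signals through SAP. It lies at chromosome 1, 171917515 to 171953170, plus strand. Its promoter signal was 1.32 in replicate 1 and 1.30 in replicate 2 (1.31 ± 0.0186, n = 2), at percentiles 10.2 and 12.4. These near-equal values came from different places. In replicate 1 the value came from a 54 bp peak in intron 1, chr1:171917901-171917954, and the shorter list held no other peak within 1 kb. In replicate 2 it came from a peak across the start itself, within chr1:171917281-171917618, and a second peak of 1.12 lay within chr1:171917621-171917880. In the longer list of replicate 1 these 2 places had signals of 0.966 and 1.31.

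The strongest site of all 5 genes lay inside Slamf6, in intron 1 at chr1:171919301-171919520, 1896 bp past the first start. Its signal was 5.71 in replicate 1 and 7.07 in replicate 2 (6.39 ± 0.963, n = 2), stronger than 86.4% and 91.1% of peaks in the shorter list of each library. With the start sites of the comprehensive annotation, used after the data were seen, this peak counts as the promoter peak of Slamf6, since a further Slamf6 transcript starts inside it. Slamf6 then leads the promoter order, above Cd1d1. A long non-coding RNA annotated on the other strand also starts there, so that the peak cannot be assigned to Slamf6 alone. A weaker intronic peak followed at chr1:171920941-171921240, with 1.71 and 1.98 in replicates 1 and 2 (1.85 ± 0.194, n = 2).

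The intron 1 sequence is printed as the strongest accessible stretch near any of the 5 genes. Capitals mark the 58 bases in footprints of both libraries, and 1 run of capitals holds the E-box CAGCTG, the letters bound by E proteins such as HEB, encoded by Tcf12.
Slamf6 intron 1, chr1:171919301-171919520, plus strand: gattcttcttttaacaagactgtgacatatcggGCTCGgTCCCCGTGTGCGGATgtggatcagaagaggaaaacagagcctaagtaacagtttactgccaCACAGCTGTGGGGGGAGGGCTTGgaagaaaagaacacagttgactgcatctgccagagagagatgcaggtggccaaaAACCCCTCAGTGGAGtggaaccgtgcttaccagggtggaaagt
CAGCTG occurs in 16.3% of peak windows and in 1.66% and 1.81% of all extended footprints of replicates 1 and 2. The window also holds CAGGTG and the MYB letters AACNGTT, both outside the footprints common to the libraries. Of all peak windows, 23.0% held CAGGTG and 2.48% the MYB letters. HEB and MYB are both known to be needed for NKT precursors, but whether either binds here was not tested.

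Zbtb16 encodes PLZF, the factor that gives NKT cells their innate-like behaviour. It lies at chromosome 9, 48654297 to 48836222, on the minus strand, and at 181.926 kb is the longest of the 5 genes. Its promoter signal was the lowest of the 4 genes with a promoter peak in the shorter list, 0.725 in replicate 1 and 0.822 in replicate 2 (0.773 ± 0.0687, n = 2). These lay at percentiles 3.53 and 5.94. The lowest q-value within 1 kb of a start was 1.06e-05 in replicate 1 and 9.97e-05 in replicate 2. These come from the same libraries as the weak peak and are no separate support for it. The site covered exon 1 and the bases before it, chr9:48835821-48836580, with 5 footprints in replicate 1 and 9 in replicate 2. Replicate 2 had a pair of peaks there, of which the stronger (0.822) did not overlap the peak of replicate 1 and the weaker (0.744) did.

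The base composition of the Zbtb16 start set it apart from the other 4 genes. Its ratio of observed to expected CpG within 500 bp of a start was 0.749, above the median of all protein-coding genes of 0.606. Cd1d1 had 0.524, Cd1d2 0.382, Slamf6 0.373 and Slamf1 0.151. For every gene with several start sites, the start with the highest ratio was used. Among 3272 other genes with a ratio within 0.05 of Zbtb16, 2754 had a promoter peak in both libraries, with a median mean signal of 6.40 against 0.773 at Zbtb16. Slamf1 lay on the other side. Among 3025 other genes within 0.05 of its ratio, 150 had a promoter peak in both libraries, with a median mean signal of 2.27 against 2.59 at Slamf1. Of the 1497 genes near the ratio of Cd1d1, 867 had such a peak, and Cd1d1 lay above their median (4.38 against 3.58). Of the 1434 near the ratio of Slamf6, 379 had one, and Slamf6 lay below their median (1.31 against 2.44). With genes lacking a peak included, Slamf6 lay above 80.2% of the genes near its ratio, and Zbtb16 above 17.9%. Cd1d2 had no promoter peak in the shorter list, and of the 1378 genes near its ratio 388 had one in both libraries. These comparisons are descriptions over genes, without a test.

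Most of the accessible DNA of Zbtb16 was far from its start. The strongest peak lay in intron 3 at chr9:48740261-48740460, 95584 bp past the nearest start, and was called on the same bases in both libraries. Its signal was 2.50 in replicate 1 and 2.25 in replicate 2 (2.37 ± 0.174, n = 2), more than at the promoter in both libraries, and its lowest q-values were 6.20e-31 and 8.19e-30. It was the one Zbtb16 peak above the median signal of the shorter list in both libraries. Beside it, intron 3 held a peak at chr9:48737561-48737800 with 0.832 in replicate 1 and 1.16 in replicate 2 (0.997 ± 0.233, n = 2). Its centred log2 ratio was 0.65, at percentile 96.7 of all pairs. Intron 2 held one at chr9:48745101-48745296 with 0.626 and 0.718 in replicates 1 and 2 (0.672 ± 0.0645, n = 2).

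The strongest Zbtb16 sequence is printed, since 54 of its 200 bases lay in footprints of both libraries, in capitals. None of the letters of the 12 motif families occurs in it.
Zbtb16 intron 3, chr9:48740261-48740460, minus strand: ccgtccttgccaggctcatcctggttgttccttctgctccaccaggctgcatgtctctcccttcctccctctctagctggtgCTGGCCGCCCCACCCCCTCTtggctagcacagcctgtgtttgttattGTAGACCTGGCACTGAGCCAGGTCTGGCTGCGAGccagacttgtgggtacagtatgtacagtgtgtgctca

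A cluster of peaks lay 3.8 to 8.8 kb past the end of Zbtb16. Of these, chr9:48646281-48646500 had 1.61 in replicate 1 and 1.15 in replicate 2 (1.38 ± 0.323, n = 2), and chr9:48650341-48650580 had 1.17 and 0.828 in replicates 1 and 2 (1.00 ± 0.243, n = 2). A further peak of 0.886 was listed in replicate 1 alone, and peaks of 0.522 and 0.307 in the shorter list of replicate 2 alone. The lowest q-values of the latter in replicate 2 were 9.19e-38 and 8.67e-20. At the place of the 0.522 peak replicate 1 reached 0.00625, and at that of the 0.307 peak it had no listed q-value. In replicate 2 the strongest Zbtb16 peak, in intron 3, reached 8.19e-30, so q-value and signal did not rank the peaks alike. Both shared sites of the cluster were lower in replicate 2, with centred log2 ratios of -0.31 and -0.33.

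**Figure D2:**
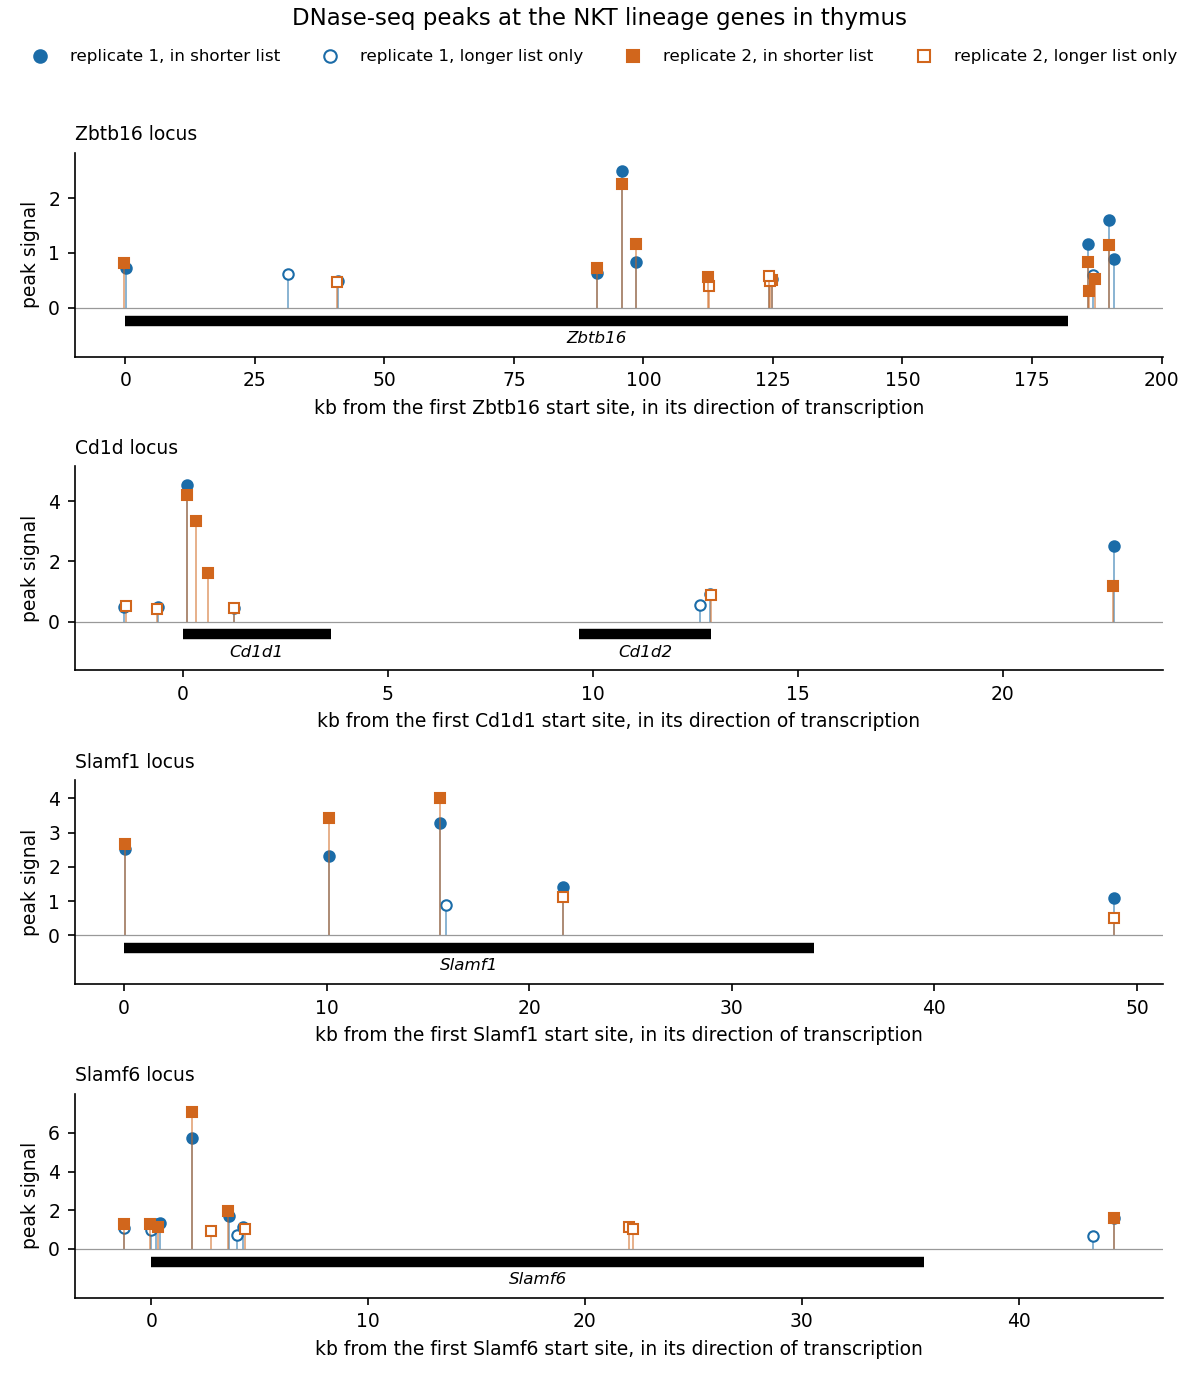
Peak signal (vertical axis, deposited units) against distance in kb from the first start site of each gene, in its direction of transcription, for the 4 loci. Circles are replicate 1 and squares replicate 2; filled symbols are peaks of the shorter list, open ones of the longer list alone, and black bars are gene bodies. The highest points lie at the start for Cd1d1, and inside the gene for Slamf1, Slamf6 and Zbtb16.

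In numbers of peaks, Zbtb16 had 7 of the shorter list in replicate 1 and 10 in replicate 2 (8.5 ± 2.12, n = 2) in its 221.926 kb. Its mean count was 4.5 without the flanks, 13.5 in the longer lists and 1 among the stronger 50% of peaks. Slamf6 had 4 and 6, Slamf1 had 5 and 3, and the Cd1d locus had 2 and 4, in replicates 1 and 2. Without the flanks Cd1d2 had 0. In the longer lists the mean counts were 9.5 at Slamf6 and 7.5 at the Cd1d locus, and among the stronger 50% of peaks Slamf6 had 2.5. Per 100 kb this gave 3.15 and 4.51 for Zbtb16, 5.29 and 7.93 for Slamf6, 6.75 and 4.05 for Slamf1, and 4.59 and 9.17 for Cd1d1, where the median gene had 3.94 and 3.53. The ranges of Slamf6, Slamf1 and Cd1d1 overlapped one another. That of Zbtb16 lay below those of Slamf6 and Cd1d1 and overlapped that of Slamf1.

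The peaks of the 4 loci fell into 26 sites of the shorter lists. Of these, 14 were called in both libraries, 4 in replicate 1 alone and 8 in replicate 2 alone. By place, 10 lay in introns, 7 past a gene's end, 6 over exons and 3 before a start, and 8 touched the 1 kb around a start. Of the 12 sites called in 1 library, 6 had a peak of the longer list in the other, and 4 reached a q-value of 0.001 or lower in the other. A further 18 sites were in longer lists alone, 8 of them in both libraries.

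Of 18 peaks of the shorter list in replicate 1, 14 (77.8%) overlapped one in replicate 2, against 79.4% of all peaks. Of 23 in replicate 2, 14 (60.9%) overlapped one in replicate 1, against 80.7% of all. In the longer lists 28 of 34 (82.4%) and 29 of 38 (76.3%) were shared, against 76% and 74.5% of all peaks of replicates 1 and 2. Replicate 2 thus listed more peaks at these genes that had no partner in the shorter list of replicate 1, and the share in the longer lists was near that of the whole genome.

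Taking the strongest peak of each library at a site, 11 of the 14 shared sites had a centred log2 ratio above 0. Centring places the median of all pairs of the genome at 0. The 14 sites lie in only 4 loci and may not be independent, and no test was made. The median over the 14 pairs of overlapping peaks was 0.24. The ratios ran from -0.92 at the site before Cd1d2 to 0.73 at Slamf1 exon 3. Over all pairs of the genome the SD of the centred ratio was 0.44.

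**Figure D3:**
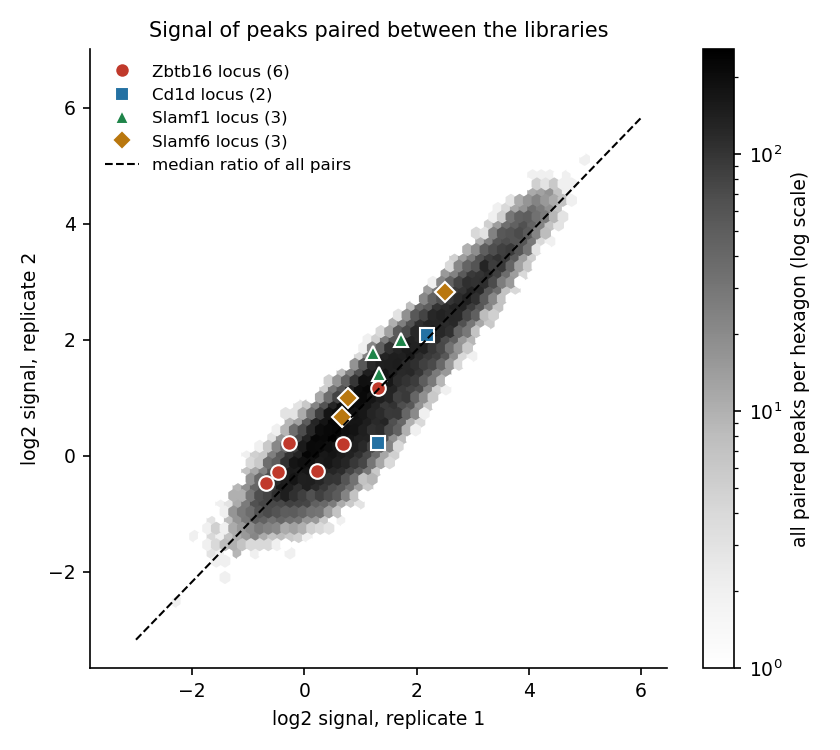
Log2 signal in replicate 1 (horizontal) and replicate 2 (vertical) of all 37494 peaks paired 1 to 1 between the shorter lists, as grey hexagons on a log count scale. Coloured symbols are the 14 shared sites of the 4 loci, by the strongest peak of each library, and the dashed line is the median ratio. The site before Cd1d2 is the blue square furthest below the line (centred log2 ratio -0.92).

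Footprints numbered 69 in replicate 1 and 110 in replicate 2 over the 4 loci. Zbtb16 had 20 and 39, Slamf6 had 20 and 37, the Cd1d locus had 16 and 21, and Slamf1 had 13 in each library. The excess of replicate 2 lay mostly at Zbtb16 and Slamf6, while the whole lists differed by far less. Of the footprints, 31 of 69 (44.9%) and 33 of 110 (30%) were shared, against 57% and 51.4% of all footprints of replicates 1 and 2. In both libraries 53.6% of them lay in peaks of the shorter list, where 70.2% and 64.9% of all footprints did. All 4 of these shares lay under those of the genome as a whole, and no test was made of the difference.

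At least 1 of the 12 motif families occurred in 10 of 69 (14.5%) and 13 of 110 (11.8%) of these footprints, extended by 5 bases, against 19.2% and 18.6% of all footprints. RUNX letters were in 3 of 69 (4.35%) and 3 of 110 (2.73%), against 1.42% and 1.44% of all, a difference that was not tested. ETS letters were in 1 and 3 footprints of replicates 1 and 2, against 3.12% and 3.19% of all. CAGCTG was in 1 and 2, against 1.66% and 1.81%, and CAGGTG in 1 and 2, against 2.36% and 2.27%. MYB letters were in 0 of either library, against 0.160% and 0.155%, and Ikaros letters in 0, against 1.64% in both. SP and KLF letters (GGGCGGG) were in 2 in each library, against 5.73% and 5.47% of all. The EGR letters GCGNGGGNG, which Egr2, an inducer of Zbtb16 in NKT precursors, is known to bind, were in 1 footprint of replicate 1 and none of replicate 2, against 2.04% and 1.97% of all. The other families searched, all on both strands and free to overlap, were those of TCF and LEF factors, GATA factors and NF-kB. The TCF and LEF letters CTTTGAT were in 1 footprint of replicate 1 (1.45%) and 0 of replicate 2, against 0.256% and 0.307% of all. The GATA letters AGATAA were in 1 footprint of each library (1.45% and 0.909%), against 0.258% and 0.261% of all. The NF-kB letters GGANTTTCC were in 0 of either library, against 0.060% and 0.054% of all. These shares rest on 0 or 1 footprint each and were not tested.

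The CTCF letters fixed for the search, AGNGGGCNC, were in none of the footprints. A shorter core, CCACNAGG, searched on both strands after the footprints had been seen, was in 3 of 69 and 3 of 110, against 1.84% and 1.46% of all footprints. CTCF is the factor that anchors chromatin loops. The 3 places lay past the end of Zbtb16, before Cd1d2 and past the end of Slamf1, all outside the bodies of the 5 genes, and footprints of both libraries covered all 8 bases of the core. The places past Zbtb16 and past Slamf1 are printed with the core in capitals.
Past Zbtb16, chr9:48646376-48646403, plus strand: caagcactagCCACTAGGtggagacaga
Past Slamf1, chr1:171815954-171815981, plus strand: ctgtgttctaCCACTAGGtgtcagtatc
All 3 places had a lower signal in replicate 2. Those past Zbtb16 and before Cd1d2 had centred log2 ratios of -0.31 and -0.92. The one 14.8 kb past the end of Slamf1, had 1.07 in the shorter list of replicate 1 and 0.496 in the longer list of replicate 2. One more window with the core, the strongest Zbtb16 peak of intron 3, held it outside any footprint and had a ratio of 0.024. Over the genome, the 3514 paired peaks with the core in their central 200 bases had a median centred ratio of -0.37, and 75.1% of them lay below 0. The 33980 pairs without it had a median of 0.029, with 47.4% below 0. Lower centred ratios at the core were thus also seen in the rest of the genome.

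Of 36 other genes of the NKT pathway, a list fixed with earlier results of these data known, 31 (86.1%) had a promoter peak of the shorter list in both libraries, where 53.6% of protein-coding genes did. The other 5 had one in neither library. The median of the mean promoter signals of the 31 was 6.25. The highest were those of Hivep3, a zinc finger factor known to act in early NKT development (20.1 ± 4.94, n = 2), and of the lysosomal cholesterol transporters Npc1 (17.9 ± 1.67) and Npc2 (13.1 ± 3.49), which take part in the handling of lipid antigens. The 5 without a promoter peak were Slamf7 and Cd244a, both SLAM family receptors of NK cells, Klrb1c, which encodes NK1.1, Tbx21, which encodes T-bet of the NKT1 subset, and Ctss, a lysosomal protease. Of these, Tbx21 had a peak of the longer list in both libraries (1.02 in replicate 1 and 0.685 in replicate 2) and Ctss in replicate 2 (0.548).

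The partners that act with Slamf1 and Slamf6, named here after their values were seen, ranged widely. Fyn had 11.8 in replicate 1 and 13.8 in replicate 2 (12.8 ± 1.41, n = 2), and Sh2d1a, which encodes SAP, had 2.98 and 3.29 (3.13 ± 0.218). Of the SLAM family receptors beside the members, Ly9 had 3.63 ± 0.0705, and Cd84 and Cd48 each had 1.57 ± 0.0112 from different peaks. Slamf1 lay below Ly9 in both libraries. Slamf6 lay below all of these with its 1 kb value of 1.31. Its value of 6.39 with the 2500 bp window or the comprehensive annotation lies above those printed here for Sh2d1a, Ly9, Cd84 and Cd48. Those are values of the 1 kb window and the basic annotation, so the measures are unlike. None of the 36 genes lay within 20 kb of the 5 genes.

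The gene segments that form the invariant receptor, Trav11 and Traj18 on chromosome 14, had no peak of either list within 500 bp in either library. The nearest peak of the shorter list lay 13622 bp from Trav11 in both libraries, and 24409 and 11276 bp from Traj18 in replicates 1 and 2.

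**Figure D4:**
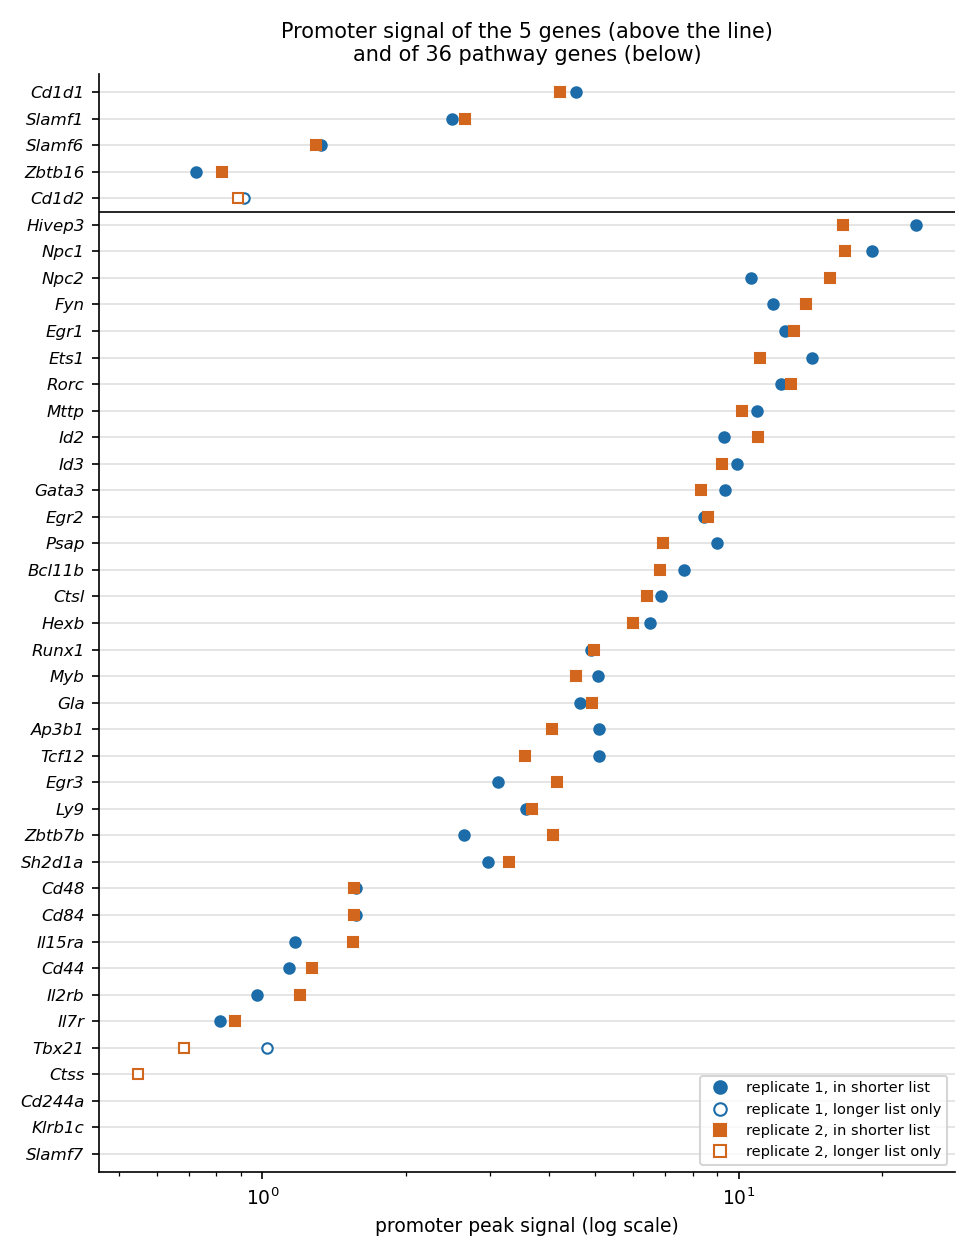
Promoter peak signal on a log axis for the 5 genes (above the line) and the 36 other genes of the NKT pathway (below), 1 row per gene, ordered by mean. Circles are replicate 1 and squares replicate 2; filled symbols are peaks of the shorter list, open ones of the longer list alone, and rows with no symbol had no promoter peak. Cd1d1 leads the 5 genes with 4.55 and 4.21, under the median of 6.25 of the 31 open pathway genes.

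Genes with the most similar pattern were found by the distance over 6 values, the numbers of shorter-list peaks and of footprints and the promoter signal in each of the 2 libraries, on a log2 scale. For Zbtb16, Fam114a1 had the smallest distance (0.445), and for Cd1d1 the genes were Polr1a (0.379) and Noc2l (0.428). For Slamf1 they were Apold1 (0.303) and Diras2 (0.311), for Slamf6 they were Nmb (0.305) and Zfp239 (0.323), and for Cd1d2 they were 1700003E16Rik and Wdr54, both at 0.0671. The number of genes within 0.5 was 3 for Zbtb16, 14 for Cd1d1, 40 for Cd1d2, 20 for Slamf1 and 13 for Slamf6, so that Zbtb16 had the fewest. The counts were not scaled by the length of the window, which was longest for Zbtb16, and the part of length in this order was not tested. For Cd1d2 the numbers of peaks and footprints were those of the window shared with Cd1d1. Without the flanks Cd1d2 had 0 peaks, so its likeness to other genes rests largely on that shared window.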

How the data were processed

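DNase-seq of thymus was deposited as 2 peak lists, 1 footprint list and 1 list of base runs for each of 2 libraries, each made from a single library and placed on mm10 according to the file notes. The peak signal is a value that the authors deposited without stating its scale; the q-value of each base run is also as the authors deposited it, and each deposited footprint carries the constant score 0.01, so footprints were used by position. The aligner, the peak caller, its thresholds and the difference between the peak lists are not given in the sources used. Main values rest on each library's shorter peak list. With files that give no counts, the precision of each value is unknown; counting errors quoted assume that a signal step is 1 cut.

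From these files, peaks and footprints touching each gene body with 20 kb on each side were counted, and a promoter peak was one within 1 kb of a start site of the GENCODE vM21 basic annotation. Any overlap of 1 bp or more counted as sharing. With 1 group of 2 libraries no test was possible, and values are given per library or as mean ± SD. Sequence came from GRCm38, whose chromosome names and lengths fit the files. Interval code was tested on simulated data. Tools were Python 3.11.15, numpy 2.4.6, samtools 1.23.1 and Biopython 1.88. The members, lists and motifs were chosen with earlier results of these data known. The genes named were all 5 members, the 3 pathway genes with the highest mean promoter signal, up to 6 with no promoter peak in either library, and the 2 protein-coding genes most like each member (some items that these rules select are not reported here); of the marker lists counts and summed signals are given. Fyn, Sh2d1a, Ly9, Cd84 and Cd48 were named after their values were seen. The comparisons by CpG ratio, the core CCACNAGG and the comprehensive annotation were chosen after seeing the data.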

Additional observations from a re-analysis of the deposited data

How the results depend on the processing

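No paired analysis was possible because there is 1 group. The number of genes with a promoter peak in both libraries was 4 with windows of 500 and 2500 bp, and 5 in the longer lists, but 2 (Cd1d1 and Slamf1) among the stronger 50% of peaks. With the window of 2500 bp, or the comprehensive annotation chosen after seeing the data, the promoter signal of Slamf6 became 6.39 ± 0.963 instead of 1.31 ± 0.0186. The mean number of peaks over the 4 loci, 20.5 as reported, was 36 with the longer lists, 13.5 with no flank and 9 among the stronger 50% of peaks. The median log2 ratio of the 14 pairs of overlapping peaks, 0.24 as reported, was 0.064 without centring. The mean share of footprints with a motif, 13.2% as reported, was 7.53% without the extension of 5 bp. Leaving out each library in turn gave 4 members and 31 pathway genes with a promoter peak, 18 to 23 peaks and 69 to 110 footprints. With 2 libraries, both possibly of 1 animal, and unknown depth, a peak missing from 1 list is not shown to be absent. Mapping to the B6 reference could also favour B6 reads of these hybrid mice; how reads were mapped is not given in the sources used here.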
